A study of Homo sapiens with 20 samples.

Results

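The genes described here are the 7 that encode the inhibitors of cyclin-dependent kinases (CDKs): the CIP/KIP genes CDKN1A, CDKN1B and CDKN1C, and the INK4 genes CDKN2A, CDKN2B, CDKN2C and CDKN2D. They were chosen by family membership and found by symbol, each at 1 of the 78932 gene identifiers in the count table. Their transcripts were counted by poly(A)-selected, strand-specific RNA sequencing in OPM2, an established human multiple myeloma cell line. The 20 libraries form 10 groups of 2 biological replicates, which the study's design calls independent. All groups are the same line, so the values describe 1 cell line. The DMSO group received vehicle and has no harvest time in the labels, so time in culture cannot be told apart from the inhibitor in any contrast with it. Panobinostat, a hydroxamic acid active against many histone deacetylases (HDACs), was given at 10 nM for 2, 5 or 20 h. Romidepsin, a cyclic depsipeptide selective for class I HDACs, was given at 10 nM for the same times. Ricolinostat, a hydroxamic acid selective for HDAC6, was given at 100 nM for 2, 5 or 20 h according to the titles, treatment protocol and design, although the treatment field of those libraries says 10 nM. Ricolinostat values therefore stand beside the others without a test between inhibitors.

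CDK inhibitors are the brakes of the cell cycle. CIP/KIP proteins bind complexes of cyclins with CDK2 and also those with CDK4 and CDK6, whereas INK4 proteins bind CDK4 and CDK6 alone and keep cyclin D from joining them. Both leave the retinoblastoma protein less phosphorylated, which holds E2F factors silent and cells in G1. CDKN1A, which encodes p21, is a long-known target of HDAC inhibitors, whose effect on it runs in part through GC boxes bound by Sp1 and Sp3 near its start. In plasma cells p18, the product of CDKN2C, is the INK4 protein best known for stopping the cycle during differentiation.

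A set of 4 promoter stretches is shown because these genes took opposite courses at 20 h: CDKN1A, CDKN2B and CDKN2D rose with panobinostat and with romidepsin, and CDKN2A fell. Each is the part of the 250 bases before a RefSeq start (GRCh38.p14) that lies outside the gene's own annotated exons, read 5′ to 3′ on the gene's strand. Capitals mark the GC box GGGCGG or its reverse complement CCGCCC. The stretches come from chr6:36678464-36678657 (plus strand, CDKN1A), chr9:22009364-22009555 (minus strand, CDKN2B), chr19:10569060-10569229 (minus strand, CDKN2D) and chr9:21995325-21995574 (minus strand, the ARF start of CDKN2A).
CDKN1A: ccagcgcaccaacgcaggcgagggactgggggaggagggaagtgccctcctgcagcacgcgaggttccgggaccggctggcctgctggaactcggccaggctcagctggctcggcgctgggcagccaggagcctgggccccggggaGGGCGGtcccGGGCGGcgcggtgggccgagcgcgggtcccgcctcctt
CDKN2B: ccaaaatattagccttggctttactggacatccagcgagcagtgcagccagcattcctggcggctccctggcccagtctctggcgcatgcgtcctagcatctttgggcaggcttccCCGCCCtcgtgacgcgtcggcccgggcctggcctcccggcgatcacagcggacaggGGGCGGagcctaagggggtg
CDKN2D: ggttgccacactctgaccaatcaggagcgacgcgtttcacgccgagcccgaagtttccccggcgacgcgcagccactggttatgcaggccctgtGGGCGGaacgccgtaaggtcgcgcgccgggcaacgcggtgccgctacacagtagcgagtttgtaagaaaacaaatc
CDKN2A, ARF start: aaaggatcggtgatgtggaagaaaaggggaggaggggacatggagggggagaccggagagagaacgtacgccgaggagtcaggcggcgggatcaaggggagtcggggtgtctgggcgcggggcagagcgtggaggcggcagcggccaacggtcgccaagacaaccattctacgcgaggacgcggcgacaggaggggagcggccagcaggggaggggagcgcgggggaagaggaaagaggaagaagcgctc
Over the full 250 bases, exons included, the CDKN1A window held 4 GC boxes, CDKN2B and CDKN2D 2 each, CDKN1B 1, the p16 start of CDKN2A 1 and its ARF start 0. The 3 starts of CDKN2C, which had no counts, held 0, 5 and 1. A GC box on either strand was found in 42.6% of all 35114 promoter windows of this length. No member's window held the TATA box TATAAA or its complement TTTATA, which 10.7% of all windows hold. A match says only that these letters occur there, and CDKN1B, which fell with panobinostat and romidepsin, carries one too. Its window and that of the p16 start of CDKN2A are not printed, since only 6 and 9 bases lie outside the gene's own exons. The RefSeq table matched 6 of the 7 genes, all but CDKN1C.

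Counts per library totalled 17264640 to 29088868. After the filter on low counts 20957 genes were tested, 6 of the 7 CDK inhibitor genes among them. CDKN2C had no counts. CDKN1C passed the filter through the panobinostat and romidepsin libraries in which it was high, so its presence in the counts of genes that rose there was partly fixed by the filter. Levels are CPM, counts scaled to library size with TMM factors and given per 1000000, and changes are log2 fold changes ± SE with n = 2 libraries per group. Adjusted p-values are from edgeR's quasi-likelihood test with Benjamini-Hochberg correction over all genes of a contrast. A gene is said to rise, fall or be higher or lower where that value is under 0.05. In these bulk samples fewer cells of a kind and less RNA per cell cannot be told apart. Checked against the labelled cell line, 11 of 12 plasma cell and myeloma markers were above 5 CPM in DMSO, FCRL5 being the exception. The summed level of these markers fell from 11504 to 11544 CPM in the DMSO libraries to 1565 to 1567 with panobinostat and 2951 to 2974 with romidepsin at 20 h. Of the markers of 6 other lineages, NCAM1 alone exceeded 5 CPM in DMSO, within T and NK cell markers that summed to 173 to 175 CPM there and to 230.1 to 235 and 305 to 312 with panobinostat and romidepsin at 20 h. Stromal and endothelial markers, 6 of 8 at 0 in DMSO, went from 4.62 to 5.21 CPM to 36.5 to 38.0 and 28.0 to 30.9, with COL1A1 the one above 5 CPM. Myeloid markers reached at most 7.94 CPM in these groups, and erythroid and epithelial markers were below that. The part of these shifts in the results on CDK inhibitors was not tested.

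In DMSO, OPM2 cells had mainly CDKN1B and CDKN2A transcripts. Per kb of joined exons the mean levels were 79.6 CPM for CDKN1B, 30.5 for CDKN2A, 18.0 for CDKN1A, 5.40 for CDKN2D, 1.60 for CDKN2B and 0.0643 for CDKN1C. The order of the first 2 depends on the length used. Per kb of the longest transcript CDKN2A stood at 103 CPM and CDKN1B at 84.2, since the joined exons of CDKN2A span 4329 bases and its longest transcript 1283.

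**Figure D1:**
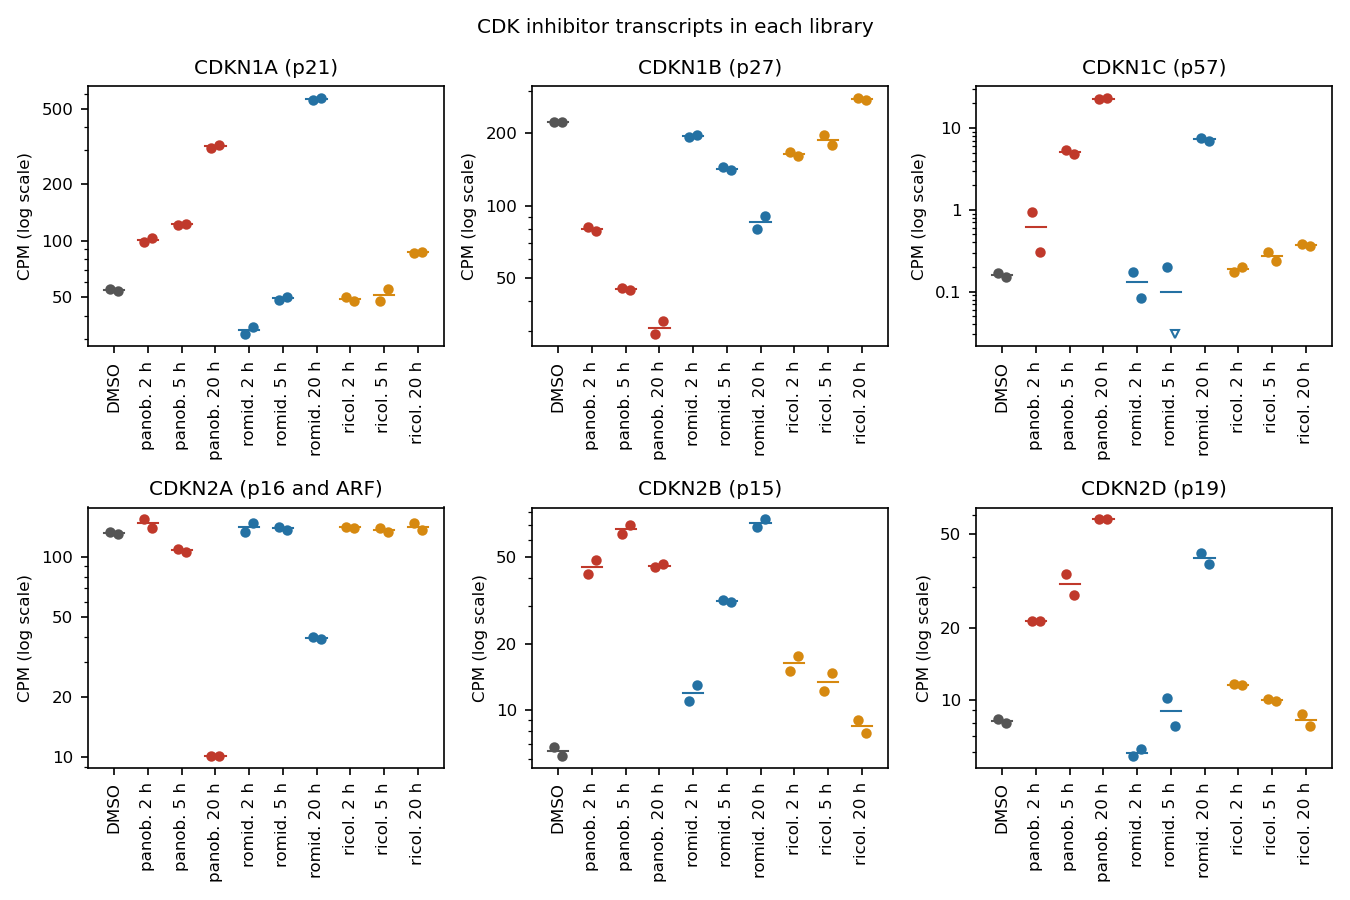
CPM (log scale, different in each panel) of the 6 CDK inhibitor genes with counts, in all 20 libraries. Points are libraries, short lines are group means of 2, and the open triangle marks a CDKN1C library with 0 counts, drawn at the bottom edge. CDKN1A, CDKN1C, CDKN2B and CDKN2D are higher at 20 h than in DMSO with panobinostat and romidepsin, and CDKN1B and CDKN2A are lower.

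CDKN1A (ENSG00000124762, GRCh38 chromosome 6, 36676460 to 36687339, plus strand) encodes p21, the CIP/KIP inhibitor best known for arrest after cell stress. Its transcripts rose at once with panobinostat and late with romidepsin. The DMSO libraries held 55.6 and 54.1 CPM, and panobinostat gave 98.5 and 103 at 2 h, 121 and 123 at 5 h, and 309.8 and 320.5 at 20 h. The panobinostat libraries lay above both DMSO libraries at every time, with changes of 0.88 ± 0.05, 1.15 ± 0.05 and 2.52 ± 0.05 (adjusted p = 5.3e-28, 3.0e-37 and 2.9e-68).

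With romidepsin CDKN1A fell before it rose. The libraries held 31.9 and 35.0 CPM at 2 h, 48.5 and 50.5 at 5 h, and 558 and 569.6 at 20 h. Those at 2 and 5 h lay below both DMSO libraries and those at 20 h were the highest of the whole series. The changes were -0.71 ± 0.06 at 2 h (adjusted p = 6.4e-18) and 3.36 ± 0.05, or 10.3-fold, at 20 h (adjusted p = 1.2e-78). The change of -0.15 ± 0.06 at 5 h (adjusted p = 0.037) lost its call in 7 alternatives, among them scaling by library size alone (-0.02, adjusted p = 0.83) and the fits without DMSO replicate 1 or 2 or romidepsin 5 h replicate 1 (adjusted p = 0.15, 0.056 and 0.19).

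The direct comparison at 10 nM changed sign with time. CDKN1A with romidepsin differed from panobinostat by -1.59 ± 0.06 at 2 h, -1.30 ± 0.05 at 5 h and 0.84 ± 0.05 at 20 h (adjusted p = 3.3e-45, 1.7e-40 and 5.8e-32). From 5 to 20 h it rose by 3.51 ± 0.05 with romidepsin and 1.37 ± 0.05 with panobinostat, and the difference between these steps was 2.14 ± 0.07 (adjusted p = 2.9e-48).

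Ricolinostat libraries held 50.3 and 47.9 CPM at 2 h, 47.8 and 55.2 at 5 h, and 85.6 and 87.3 at 20 h. At 20 h both lay above DMSO, with a change of 0.66 ± 0.05 (adjusted p = 4.1e-19). The change at 2 h was -0.16 ± 0.06 (adjusted p = 0.022), a call lost without DMSO replicate 1 (adjusted p = 0.090) or ricolinostat 2 h replicate 2 (adjusted p = 0.052). At 5 h it was -0.09 ± 0.06 (adjusted p = 0.21), with a call that appeared under DESeq2 (-0.15, adjusted p = 0.035) and without ricolinostat 5 h replicate 2 (-0.23, adjusted p = 0.0045). In order of mean level the groups ran from romidepsin 20 h through panobinostat at 20, 5 and 2 h, ricolinostat 20 h and DMSO to ricolinostat 5 h, romidepsin 5 h, ricolinostat 2 h and romidepsin 2 h. Libraries of ricolinostat at 2 and 5 h and of romidepsin at 5 h overlapped one another, and those of ricolinostat at 5 h also overlapped DMSO.

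CDKN1A overlaps DINOL (chromosome 6, 36677609 to 36678559, minus strand), a noncoding RNA transcribed from its promoter in the opposite sense. DINOL had 0 counts in both DMSO libraries, 0 and 5 with panobinostat at 20 h, and 2 and 10 with romidepsin at 20 h. The library protocol keeps strand, but the strand setting used in counting is not given in the sources used here, so reads of the pair cannot be told apart.

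CDKN1B (ENSG00000111276, chromosome 12, 12715058 to 12722371, plus strand) encodes p27, the CIP/KIP inhibitor that holds resting cells out of the cycle and is controlled largely through its degradation. With panobinostat it fell at every time, where CDKN1A rose. The DMSO libraries held 224 and 223 CPM, and panobinostat gave 81.7 and 78.6 at 2 h, 45.2 and 44.6 at 5 h, and 29.1 and 32.9 at 20 h. No panobinostat library overlapped DMSO, and the changes were -1.48 ± 0.05, -2.32 ± 0.06 and -2.85 ± 0.06 (adjusted p = 1.0e-46, 3.9e-61 and 1.0e-69).

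With romidepsin CDKN1B fell more slowly. The romidepsin libraries held 193 and 197 CPM at 2 h, 144 and 141 at 5 h, and 80.0 and 90.3 at 20 h, all below DMSO. The changes were -0.20 ± 0.05, -0.65 ± 0.05 and -1.39 ± 0.05 (adjusted p = 0.0023, 3.1e-21 and 5.0e-46). At 20 h CDKN1B with romidepsin was thus near its level with panobinostat at 2 h, and it was higher than with panobinostat at every time, by 1.28 ± 0.05, 1.67 ± 0.06 and 1.45 ± 0.06 (adjusted p = 2.4e-41, 4.0e-48 and 4.3e-42). The step from 5 to 20 h was -0.74 ± 0.05 with romidepsin and -0.53 ± 0.06 with panobinostat. The difference of -0.22 ± 0.08 (adjusted p = 0.025) was lost under DESeq2 (adjusted p = 0.061), without the filter (adjusted p = 0.066) and without either panobinostat 5 h library, panobinostat 20 h replicate 2, romidepsin 5 h replicate 1 or romidepsin 20 h replicate 1 (adjusted p from 0.078 to 0.35).

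With ricolinostat CDKN1B was lower than in DMSO at 2 and 5 h and higher at 20 h. The libraries held 167 and 161 CPM at 2 h, 196 and 178 at 5 h, and 282 and 275 at 20 h. Those at 2 and 5 h lay below DMSO and those at 20 h above it, with changes of -0.45 ± 0.05, -0.26 ± 0.05 and 0.32 ± 0.05 (adjusted p = 1.3e-13, 5.1e-06 and 2.7e-08). In order of mean level the groups ran from ricolinostat 20 h through DMSO, romidepsin 2 h, ricolinostat 5 and 2 h, romidepsin 5 and 20 h to panobinostat 2, 5 and 20 h. Romidepsin 2 h overlapped ricolinostat 5 h, and romidepsin 20 h overlapped panobinostat 2 h, and no other neighbours did.

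CDKN1C (ENSG00000129757, chromosome 11, 2883213 to 2885773, minus strand) encodes p57, an imprinted CIP/KIP gene that is active mainly in embryonic and differentiating tissue. It was close to silent in DMSO, with 4 counts in each library (0.169 and 0.149 CPM). With panobinostat it had 95 and 116 counts at 5 h (5.41 and 4.79 CPM) and 575 and 779 at 20 h (22.5 and 23.4 CPM). With romidepsin it had 4 and 2 counts at 2 h, 5 and 0 at 5 h, and 180 and 189 at 20 h (7.60 and 7.01 CPM).

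The romidepsin libraries at 2 and 5 h lay around DMSO (-0.30 ± 0.81 and -0.55 ± 0.85, adjusted p = 0.93 and 0.69). CDKN1C was above DMSO at 5 and 20 h with panobinostat and at 20 h with romidepsin. The fitted changes were 4.96 ± 0.39, 7.13 ± 0.34 and 5.48 ± 0.37 (adjusted p = 3.1e-21, 2.9e-37 and 8.7e-26), sizes that rest on 8 counts in DMSO. At 2 h with panobinostat the libraries had 20 and 8 counts, in the group whose replicates differed most over all genes (chi-square per degree of freedom 6.48, against 2.36 in the closest group). The change of 1.88 ± 0.58 (adjusted p = 0.0052) rested on the first of them: without panobinostat 2 h replicate 1 it was 0.91 (adjusted p = 0.43), and without DMSO replicate 2 it was 1.77 (adjusted p = 0.054). Ricolinostat libraries had 4 to 9 counts, with changes of 0.23 ± 0.74, 0.77 ± 0.68 and 1.21 ± 0.64 that did not pass (adjusted p = 0.89, 0.43 and 0.15). At 20 h CDKN1C was lower with romidepsin than with panobinostat by -1.65 ± 0.20 (adjusted p = 2.8e-12), the reverse of CDKN1A.

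CDKN2B and CDKN2A are neighbours on chromosome 9, 7602 bases apart on the minus strand. They moved in opposite directions with panobinostat at 5 and 20 h and with romidepsin at 20 h, and in the other contrasts with DMSO CDKN2B rose while CDKN2A did not fall. CDKN2B (ENSG00000147883, 22002903 to 22009363) encodes p15, the INK4 inhibitor that transforming growth factor beta induces. The DMSO libraries held 6.82 and 6.19 CPM, and panobinostat gave 41.7 and 48.4 at 2 h, 63.8 and 69.9 at 5 h, and 44.8 and 46.5 at 20 h. All 6 panobinostat libraries lay far above DMSO, with a peak at 5 h. The changes were 2.80 ± 0.10, 3.37 ± 0.10 and 2.82 ± 0.10 (adjusted p = 5.4e-44, 4.1e-52 and 4.7e-46), and the step from 5 to 20 h was -0.55 ± 0.08 (adjusted p = 1.4e-09).

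With romidepsin CDKN2B climbed at each time. Its libraries held 10.96 and 13.0 CPM at 2 h, 31.8 and 31.2 at 5 h, and 68.2 and 74.2 at 20 h, with no overlap with DMSO or between times. The changes were 0.89 ± 0.12, 2.28 ± 0.11 and 3.46 ± 0.10 (adjusted p = 1.7e-08, 6.8e-35 and 4.4e-54). At 2 h it was the one member that rose with romidepsin while CDKN1A, CDKN1B and CDKN2D were lower than in DMSO. Against panobinostat it was -1.91 ± 0.10 at 2 h, -1.09 ± 0.08 at 5 h and 0.64 ± 0.08 at 20 h (adjusted p = 4.7e-34, 4.0e-22 and 6.5e-12).

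With ricolinostat CDKN2B was higher early and less so later. The ricolinostat libraries held 15.1 and 17.6 CPM at 2 h, 12.3 and 14.7 at 5 h, and 8.99 and 7.89 at 20 h, all above DMSO. The changes were 1.34 ± 0.12, 1.05 ± 0.12 and 0.38 ± 0.13 (adjusted p = 3.5e-18, 1.6e-12 and 0.017). The call at 20 h was lost without DMSO replicate 2 (0.30, adjusted p = 0.18) or ricolinostat 20 h replicate 1 (0.28, adjusted p = 0.24), and with only the groups of the contrast in the fit (adjusted p = 0.055). Over the series CDKN2B ran from romidepsin 20 h and panobinostat 5 h, which overlapped, through panobinostat 20 and 2 h, which also overlapped, to romidepsin 5 h, ricolinostat 2 h, ricolinostat 5 h and romidepsin 2 h, the last pair overlapping, and ended with ricolinostat 20 h and DMSO.

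CDKN2A (ENSG00000147889, 21967753 to 21995301) encodes the INK4 inhibitor p16 and, from another first exon and reading frame, the unrelated protein ARF. The counts are per gene, so p16 and ARF transcripts cannot be told apart. The DMSO libraries held 134 and 130.4 CPM, and panobinostat gave 154 and 140.2 at 2 h, 110.5 and 106 at 5 h, and 10.2 and 10.2 at 20 h. The libraries at 5 h lay below DMSO, and those at 20 h below every other library of the series. The changes were -0.29 ± 0.05 at 5 h and -3.69 ± 0.07, or 0.0772-fold, at 20 h (adjusted p = 1.0e-06 and 1.2e-72). The change of 0.16 ± 0.05 at 2 h (adjusted p = 0.0095) was lost under DESeq2 (adjusted p = 0.12), its size factors (adjusted p = 0.099) and without any 1 of the 4 libraries (adjusted p from 0.057 to 0.48).

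With romidepsin CDKN2A stayed near its DMSO level until 5 h and was lower at 20 h. The romidepsin libraries held 134 and 148 CPM at 2 h, 141 and 137 at 5 h, and 39.9 and 39.0 at 20 h. The changes at 2 and 5 h were 0.09 ± 0.05 and 0.07 ± 0.05 (adjusted p = 0.33 and 0.31), with 95% intervals of -0.01 to 0.19 and -0.03 to 0.17. By library size alone the 5 h change was 0.20 (adjusted p = 7.3e-04). At 20 h the change was -1.74 ± 0.06 (adjusted p = 3.4e-50), 1.95 ± 0.07 above panobinostat (adjusted p = 1.4e-43). Ricolinostat libraries held 133 to 147 CPM, with changes of 0.10 ± 0.05, 0.05 ± 0.05 and 0.10 ± 0.05 that did not pass (adjusted p = 0.16, 0.55 and 0.12). By library size alone the 20 h change was 0.21 (adjusted p = 4.3e-04), and it also passed under the stricter filter (adjusted p = 0.038) and with only the groups of the contrast (adjusted p = 0.032). The 7 groups other than panobinostat 5 and 20 h and romidepsin 20 h thus lay between 130.4 and 154 CPM, with overlap between neighbours.

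Of the other genes of the locus 2 fell and 1 rose at 20 h with panobinostat and romidepsin. MTAP, a methionine salvage enzyme 30102 bases from CDKN2A on the side away from CDKN2B, went from 62.0 and 60.6 CPM in DMSO to 33.8 and 37.3 with panobinostat and 35.0 and 37.0 with romidepsin (-0.78 ± 0.07 and -0.77 ± 0.07, adjusted p = 4.1e-20 and 3.0e-19). CDKN2B-AS1, the antisense RNA that overlaps CDKN2B and the 5′ start of CDKN2A, went from 7.37 and 6.97 CPM to 1.37 and 0.992 and to 3.76 and 2.60 (-2.62 ± 0.24 and -1.18 ± 0.21, adjusted p = 4.0e-18 and 4.2e-07). DMRTA1, the next coding gene past CDKN2B, 437478 bases away, went from 1.95 and 1.98 CPM to 2.93 and 3.94 and to 6.96 and 6.97 (0.82 ± 0.25 and 1.83 ± 0.24, adjusted p = 0.0029 and 1.1e-10). CDKN2B thus rose while its antisense RNA, CDKN2A and MTAP fell, and whether counting kept the strands of the overlapping genes apart is not given in the sources used here. With ricolinostat at 20 h MTAP changed by -0.38 ± 0.07 (adjusted p = 6.2e-07) and CDKN2B-AS1 by 0.07 ± 0.19 (adjusted p = 0.84).

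**Figure D2:**
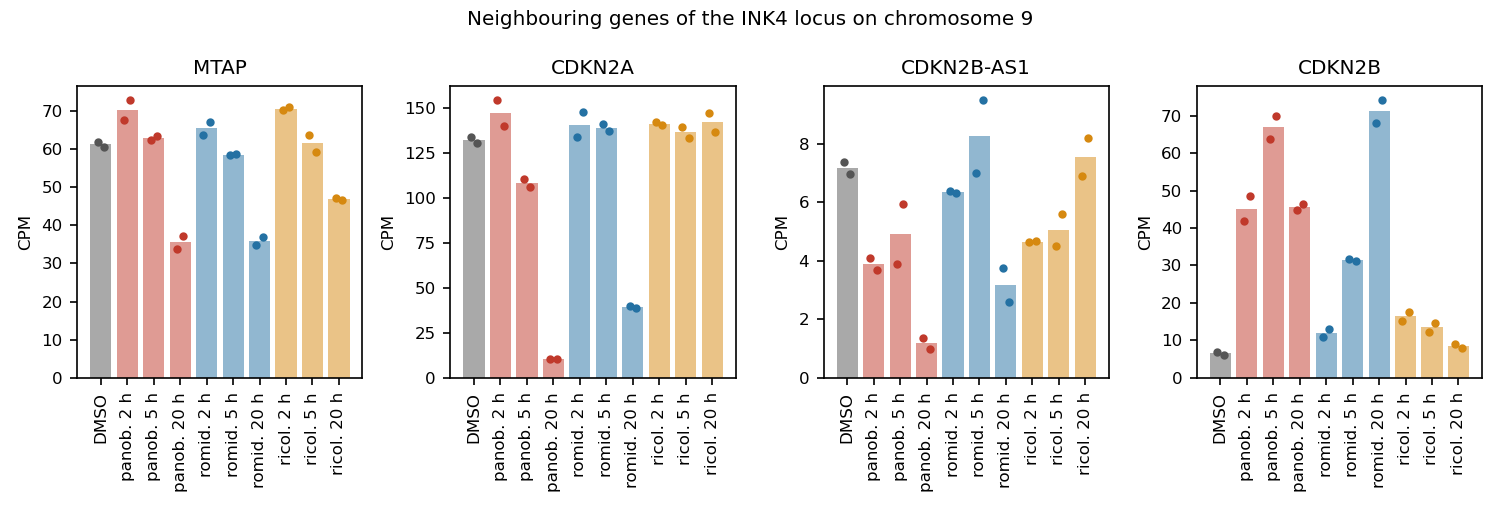
CPM of MTAP, CDKN2A, CDKN2B-AS1 and CDKN2B, neighbours on chromosome 9, by group, each panel with its own linear scale. Bars are means of 2 libraries and points the libraries. At 20 h with panobinostat and romidepsin CDKN2B is high and the other genes are low.

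The ratio of CDKN2B to CDKN2A per kb of joined exons was 0.0524 in DMSO. It was 4.78 with panobinostat and 1.93 with romidepsin at 20 h, and 0.0634 with ricolinostat. Per kb of the longest transcript the first 3 values were 0.0161, 1.47 and 0.592, so the order of the pair at 20 h with romidepsin depends on the length used.

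CDKN2D (ENSG00000129355, chromosome 19, 10566462 to 10569059, minus strand) encodes p19, the INK4 inhibitor whose level varies through the cell cycle. The DMSO libraries held 8.30 and 7.94 CPM, and panobinostat gave 21.5 and 21.5 at 2 h, 33.8 and 27.6 at 5 h, and 57.7 and 57.7 at 20 h. The levels stepped up without overlap, with changes of 1.41 ± 0.12, 1.91 ± 0.11 and 2.83 ± 0.11 (adjusted p = 7.4e-20, 2.4e-29 and 7.1e-45).

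Romidepsin gave the late course seen for CDKN1A. CDKN2D stood at 5.79 and 6.16 CPM at 2 h, 10.2 and 7.70 at 5 h, and 41.6 and 37.3 at 20 h. The 2 h libraries lay below DMSO (-0.44 ± 0.14, adjusted p = 0.030), a call lost when any 1 of the 4 libraries was left out (adjusted p from 0.068 to 0.20), by library size alone (adjusted p = 0.058) and with only the groups of the contrast (adjusted p = 0.059). At 5 h the libraries fell on both sides of DMSO (0.15 ± 0.13, adjusted p = 0.43), and at 20 h the change was 2.28 ± 0.11 (adjusted p = 2.1e-36). CDKN2D was lower with romidepsin than with panobinostat at all times, by -1.85 ± 0.12, -1.76 ± 0.11 and -0.55 ± 0.09 (adjusted p = 2.3e-25, 7.1e-27 and 1.1e-07). With ricolinostat it stood at 11.6 and 11.5 CPM at 2 h, 10.1 and 9.83 at 5 h, and 8.69 and 7.71 at 20 h. Its change of 0.51 ± 0.12 at 2 h passed (adjusted p = 4.6e-04), and those of 0.30 ± 0.13 and 0.02 ± 0.13 at 5 and 20 h did not (adjusted p = 0.063 and 0.97), though by library size alone the one at 5 h did (0.33, adjusted p = 0.034). From highest to lowest CDKN2D ran from panobinostat 20 h through romidepsin 20 h, panobinostat 5 and 2 h and ricolinostat 2 h to ricolinostat 5 h, romidepsin 5 h, ricolinostat 20 h, DMSO and romidepsin 2 h. Libraries of ricolinostat 5 h, romidepsin 5 h, ricolinostat 20 h and DMSO overlapped their neighbours in that order.

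CDKN2C (ENSG00000123080, chromosome 1, 50960745 to 50974633, plus strand) had 0 counts in all 20 libraries. At 3 counts this allows a level of up to 0.0902 to 0.171 CPM per library, a limit that covers counting error only. FAF1, an adaptor of protein degradation that starts 482 bases away on the other strand, and C1orf185 on the other side also had 0 counts in all 20. These 3 are the only genes at 0 in all libraries among the 12 protein-coding genes within 1000000 bases. ELAVL4 and DMRTA2 beyond FAF1 had at most 2 counts in any library, while RNF11 and EPS15 farther along had 1524 to 4035 and 1396 to 2552 counts per library. No inhibitor brought counts to any of the 3. This stretch of chromosome 1 is known to be lost in some myelomas, and DNA copy number was not analysed here.

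The nearest coding genes beside the other tested members took several courses at 20 h. Beside CDKN1A, SRSF3 fell by 0.74 with panobinostat and by 0.38 with romidepsin, and RAB44 had 0 counts in both DMSO libraries, 24 and 8 with panobinostat and 30 and 31 with romidepsin. Beside CDKN1B, GPR19 rose by 0.71 and 0.75, and APOLD1 changed by -1.11 and 0.82. KRI1 beside CDKN2D changed by 0.15 and -0.46, and KCNQ1 beside CDKN1C by -0.05 ± 0.27 and 0.31 ± 0.26, which did not pass (adjusted p = 0.86 and 0.30).

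**Figure D3:**
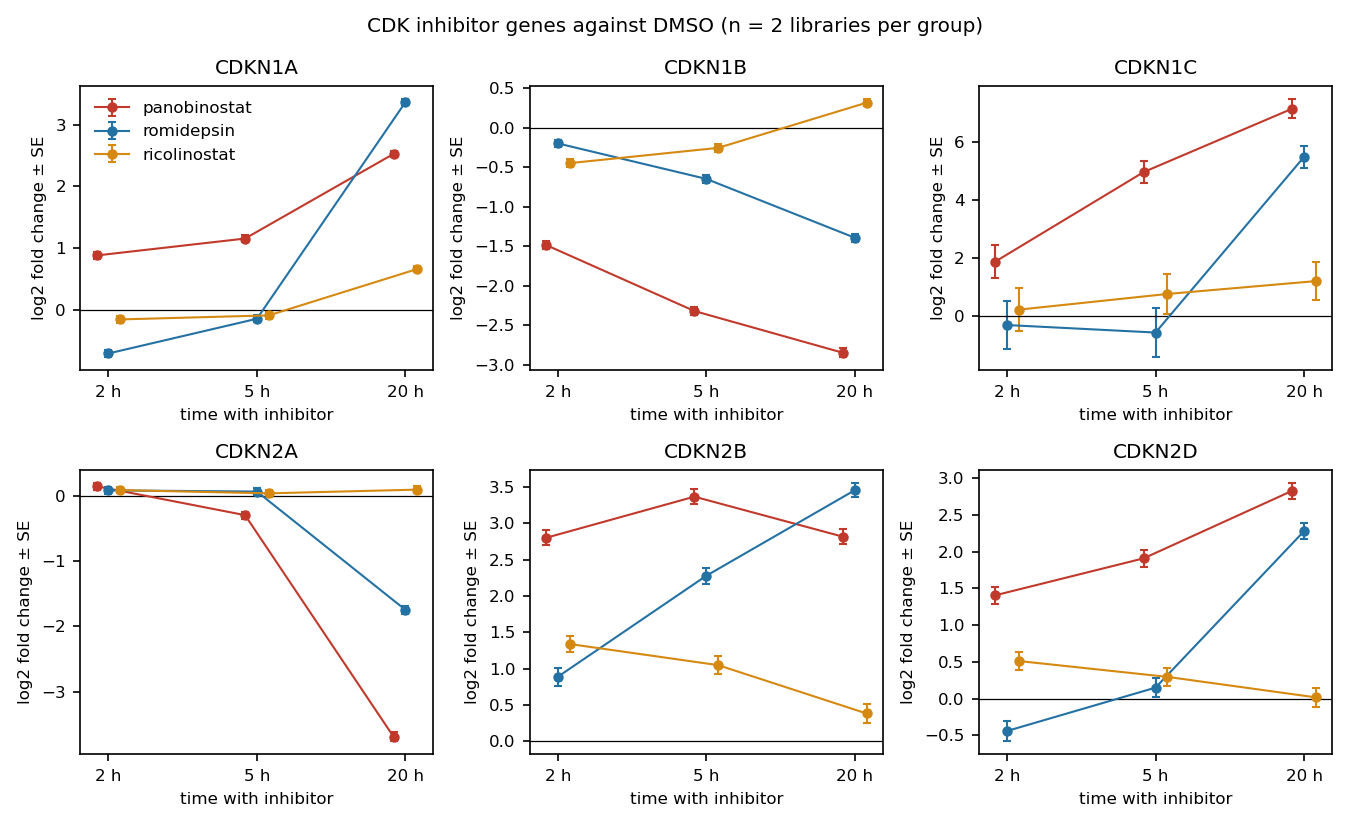
Log2 fold change against DMSO of the 6 tested CDK inhibitor genes at 2, 5 and 20 h (time axis not to scale), with error bars of 1 SE and n = 2 libraries per group. For CDKN1A and CDKN2D romidepsin starts below 0 at 2 h and ends at 3.36 and 2.28 at 20 h, whereas panobinostat is above 0 throughout.

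Read over the family, all 6 tested members changed at each time with panobinostat. Of all genes 38.9%, 56.6% and 73.1% changed at 2, 5 and 20 h. At 2 h 5 rose (20.8% of all genes rose) and CDKN1B fell (18.1% fell). At 5 h 4 rose (30.7%) and CDKN1B and CDKN2A fell (25.9%), and at 20 h the same 4 rose (40.8%) and the same pair fell (32.3%). With romidepsin 4 members changed at 2 h (8.16% of all genes), 3 at 5 h (29.6%) and 6 at 20 h (68.5%). At 2 h CDKN2B rose (3.55% of all genes rose) and 3 fell (4.62%). At 5 h CDKN2B rose (13%) and CDKN1A and CDKN1B fell (16.5%). At 20 h CDKN1A, CDKN1C, CDKN2B and CDKN2D rose (38.6%) and CDKN1B and CDKN2A fell (29.9%), as with panobinostat. With ricolinostat 4, 2 and 3 members changed (31.5%, 34.1% and 31.1% of all genes). At 2 h 2 rose (16.9%) and 2 fell (14.5%), at 5 h 1 rose (18.8%) and 1 fell (15.3%), and at 20 h 3 rose (14.7%) and none fell (16.4%). With panobinostat and romidepsin most genes changed at 20 h, so a count of 6 there says little about the members. The contrasts share their DMSO libraries.

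The times compared within an inhibitor do not use DMSO. In these steps too, time in culture cannot be told apart from time with the inhibitor. With panobinostat all 6 members changed from 2 to 5 h (41.9% of all genes), 4 upward (19.8%) and CDKN1B and CDKN2A downward (22.2%). From 5 to 20 h 6 changed as well (56.3%), CDKN1A, CDKN1C and CDKN2D upward (27.5%) and CDKN1B, CDKN2A and CDKN2B downward (28.9%). With romidepsin 4 changed from 2 to 5 h (20.3%), CDKN1A, CDKN2B and CDKN2D upward (8.4%) and CDKN1B downward (11.9%). From 5 to 20 h 6 changed (62.8%), 4 upward (33.4%) and CDKN1B and CDKN2A downward (29.4%). The rise of CDKN2D from 2 to 5 h (0.59 ± 0.14, adjusted p = 5.1e-04) was lost without romidepsin 5 h replicate 1 (0.36, adjusted p = 0.16). With ricolinostat 2 changed from 2 to 5 h (15.3%), 1 upward (6.69%) and 1 downward (8.58%): CDKN1B by 0.19 ± 0.05 (adjusted p = 0.0020) and CDKN2B by -0.29 ± 0.10 (adjusted p = 0.043), and neither did without ricolinostat 2 h replicate 2 (adjusted p = 0.19 and 0.46) or 5 h replicate 1 (adjusted p = 0.45 and 0.39). From 5 to 20 h 3 changed (37.9%), 2 upward (17.2%) and 1 downward (20.7%): CDKN1A by 0.75 ± 0.05, CDKN1B by 0.57 ± 0.05 and CDKN2B by -0.67 ± 0.12 (adjusted p = 2.0e-22, 6.1e-19 and 8.9e-07).

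Between romidepsin and panobinostat 5 members differed at 2 h (37.1% of all genes), 4 lower with romidepsin (19.8%) and CDKN1B higher (17.3%). At 5 h 6 differed (50.7%), CDKN1B and CDKN2A higher (24.8%) and 4 lower (25.9%), and at 20 h 6 differed (41.7%). At 2 h the exception was CDKN2A (-0.06 ± 0.05, 95% interval -0.16 to 0.04, adjusted p = 0.36). The difference of CDKN1C at 2 h (-2.18 ± 0.62, adjusted p = 0.0024) was lost without panobinostat 2 h replicate 1 (-1.22, adjusted p = 0.30) or romidepsin 2 h replicate 2 (-1.74, adjusted p = 0.061). At 20 h CDKN1A, CDKN1B, CDKN2A and CDKN2B were higher with romidepsin (23.4%) and CDKN1C and CDKN2D lower (18.3%). The step from 2 to 5 h differed between both drugs for 5 members (24.1% of all genes), 4 with the higher step under romidepsin (14.4%) and CDKN1C with the lower (9.72%). The step from 5 to 20 h differed for 6 (40.6%), 5 higher (24.8%) and CDKN1B lower (15.8%). Without romidepsin 2 h replicate 1 the first count was 3, as CDKN1A (0.23, adjusted p = 0.063, against 0.29 ± 0.08 with it) and CDKN1C (-2.73, adjusted p = 0.25, against -3.33 ± 1.04) did not pass. CDKN1C was also lost without romidepsin 5 h replicate 2 (-2.48, adjusted p = 0.073).

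The make-up of the family differed most from DMSO at 20 h with panobinostat and romidepsin. The ratio of CDKN1A to CDKN1B per kb of joined exons was 0.226 ± 0.00344 in DMSO (SD, n = 2). It was 1.16, 2.50 and 9.40 with panobinostat at 2, 5 and 20 h, and 0.158, 0.319 and 6.12 with romidepsin. With ricolinostat it was 0.276, 0.255 and 0.286. CDKN1A held 13.3% of the summed level of the 6 genes per kb in DMSO, 58.8% with panobinostat and 68.2% with romidepsin at 20 h, and CDKN1B went from 58.9% to 6.27% and 11.2%. With ricolinostat at 20 h the shares were 16.9% and 59.0%. The sum itself per kb of joined exons was 135 ± 1.52 CPM in DMSO (SD, n = 2). At 20 h it was 176 ± 3.98 with panobinostat, 271 ± 4.0 with romidepsin and 168 ± 3.56 with ricolinostat (SD, n = 2). This sum was lower, at 113 to 125, in the 6 groups at 2 and 5 h. The panobinostat 2 h libraries overlapped DMSO per kb of the longest transcript, at 220.85 and 211.86 against 221.04 and 216.72. Per kb of the longest transcript the sums at 20 h were 223, 361 and 262 against 219 in DMSO, so the rise with panobinostat depends on the length given to CDKN2A.

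**Figure D4:**
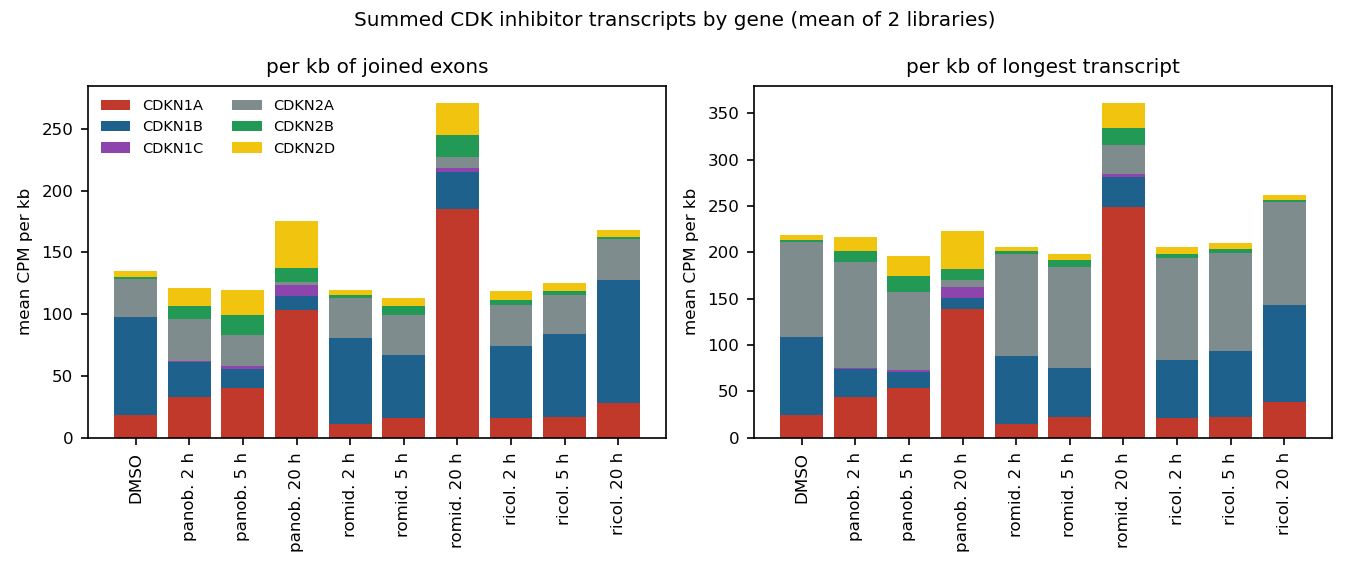
Mean CPM per kb of the 6 CDK inhibitor genes stacked by group (2 libraries each), per kb of joined exons on the left and of the longest transcript on the right, on different linear scales. CDKN1B and CDKN2A make up most of the DMSO and ricolinostat bars, and CDKN1A most of the panobinostat and romidepsin bars at 20 h.

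Mean log2 CPM over the 10 groups gave the genes of most similar course among at least 9586 protein-coding genes with a mean of 5 CPM or more. Pearson's r was 0.989 between CDKN1A and ID2, an inhibitor of helix-loop-helix factors that went from 62.3 CPM in DMSO to 424 with panobinostat and 806 with romidepsin at 20 h. TXNIP (0.986) and IER2 (0.982) followed for CDKN1A. For CDKN1B they were NSD2 (0.994), SNX18 (0.989) and GSPT2 (0.988). CDKN1C was followed by ALDH6A1 (0.990) and ALDOC (0.990). For CDKN2A they were UBE2E1 (0.998), MSN (0.996) and GMFG (0.996), for CDKN2B CDS1 (0.986), BCL6 (0.978) and SLC16A10 (0.973), and for CDKN2D LTBP3 (0.994), GGCX (0.992) and TSPYL2 (0.986). Among the members themselves r ran from -0.92 between CDKN1B and CDKN2D to 0.95 between CDKN1C and CDKN2D. These are descriptions over 10 group means that share their libraries and the changes at 20 h, with the top genes picked from all candidates.

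The lists of related genes are read against the shares of all genes at 20 h: 40.8% rose and 32.3% fell with panobinostat, and 38.6% rose and 29.9% fell with romidepsin. Of 15 tested G1 and S phase cyclins and kinases, 5 rose and 7 fell with panobinostat at 20 h. With romidepsin 6 rose and 7 fell. The part that rose was near the shares of all genes and the part that fell was above them. The list is small and was not tested as a set. The list's medians were -0.04 and -0.22, beside 0.25 and 0.22 over all genes. Scaled by library size alone the list's medians were 0.26 and 0.01, beside 0.56 and 0.46 over all genes. With DESeq2-type size factors the first was 0.00022, beside 0.29 over all genes. CCND2, a D cyclin, went from 572 CPM in DMSO to 23.1 and 83.9 (-4.63 ± 0.05 and -2.77 ± 0.05, adjusted p = 6.0e-92 and 1.1e-76). CDK6, a kinase that INK4 proteins bind, went from 519 CPM to 34.2 and 114 (-3.93 ± 0.05 and -2.19 ± 0.05, adjusted p = 2.9e-80 and 4.3e-63). Cyclin A2 (CCNA2) and the phosphatase CDC25A changed by -1.85 and -1.25 with panobinostat and by -1.47 and -1.84 with romidepsin, all 4 past the threshold.

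Of 17 pocket proteins and E2F factors 3 rose and 12 fell with panobinostat at 20 h, and 5 rose and 11 fell with romidepsin. Of all genes 40.8% rose and 32.3% fell, and 38.6% rose and 29.9% fell. The list's medians were -0.50 and -0.48, beside 0.25 and 0.22 over all genes. By library size alone 5 rose and 10 fell, and 6 rose and 10 fell. The medians were then -0.19 and -0.24, beside 0.56 and 0.46 over all genes. E2F2, an activator of S phase genes, changed by -2.75 ± 0.05 and -2.15 ± 0.05, E2F3 by -2.30 and -1.30, the repressor E2F8 by -2.15 and -1.88, and LIN37, a subunit of the DREAM repressor complex, by 1.74 and 1.23. Of 20 cell division markers 18 fell and 2 rose with panobinostat, and 19 fell and 1 rose with romidepsin, with medians of -1.33 and -1.14. By library size alone 17 fell with romidepsin, and the medians were -1.02 and -0.90. TYMS, which makes thymidylate, changed by -4.33 and -3.41, FOXM1, a mitotic transcription factor, by -2.68 and -2.03, AURKA by -2.47 and -1.84, and MCM5, a helicase subunit, by -2.36 and -2.36. With ricolinostat at 20 h, where CDKN1A and CDKN1B were both higher, 13 of these 20 fell and 2 rose, with a median of -0.20, while 16.4% of all genes fell and 14.7% rose.

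Among 18 other brakes on the cycle 9 rose and 7 fell with panobinostat, and 10 rose and 6 fell with romidepsin, where 40.8% and 32.3%, and 38.6% and 29.9%, of all genes did. CCNG2, an atypical cyclin that slows the cycle, rose by 3.13 ± 0.11 and 3.95 ± 0.11, GADD45B by 2.40 and 2.77, and HEXIM1, an inhibitor of the transcription kinase P-TEFb, by 2.68 and 2.53.

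Of 23 transcriptional activators of CDK inhibitor genes 10 rose and 13 fell with panobinostat. With romidepsin 12 rose and 8 fell (15 and 5 by library size alone). Of all genes, with TMM scaling, 40.8% rose and 32.3% fell, and 38.6% rose and 29.9% fell. By library size alone higher calls made up 65.91% of all called genes with panobinostat and 66.11% with romidepsin. With TMM they made up 55.84% and 56.35%. TP63, an epithelial transcription factor, had 0 CPM in DMSO and 32.2 and 11.3 CPM at 20 h, EGR1 rose by 5.93 and 4.78, and MXD1, an antagonist of MYC, by 3.57 and 3.27. Of 26 repressors 12 rose and 12 fell with panobinostat (14 and 10 by library size alone). With romidepsin 11 rose and 11 fell (16 and 8 by library size alone). That scaling moved the median of all genes as well, from 0.25 to 0.56 with panobinostat and from 0.22 to 0.46 with romidepsin. MYC, a repressor of CDKN1A and CDKN2B, changed by -5.52 ± 0.06 and -4.20 ± 0.05, TFAP4 by -4.20 and -3.87, and GFI1 by -4.19 and -1.90, whereas ID3 rose by 3.27 and 4.27.

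Of 18 genes for ubiquitin ligase subunits, their cofactors and deubiquitinases that act on CDK inhibitor proteins, 6 rose and 11 fell with panobinostat. With romidepsin 6 rose and 10 fell. By library size alone 8 rose and 8 fell in both. Of all genes, with TMM scaling, 40.8% rose and 32.3% fell, and 38.6% rose and 29.9% fell. The median of all genes was 0.25 and 0.22 with TMM, and 0.56 and 0.46 by library size alone. CUL1, the scaffold of the SCF ligase that marks p27 for degradation, went from 675 CPM to 21.3 and 79.5 (-4.99 ± 0.05 and -3.09 ± 0.04, adjusted p = 7.4e-96 and 4.7e-82). RBX1, its RING subunit, changed by -1.39 and -1.08, CUL4A by -1.35 and -1.38, and RNF123, a ligase for p27 in G1, by 1.498 and 0.85. Protein levels were not analysed here.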

How the data were processed

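RNA was measured in 20 OPM2 libraries (10 groups of 2). The deposited table holds whole-number counts per gene that the authors made; HISAT2, SAMtools, featureCounts and GRCh38 are named in the submitters' processing notes. For versions, annotation, strand setting and the counting of reads or pairs, nothing is given in the labels; the value 2 occurs 76134 times and the value 1 43567 times. Totals were 17264640 to 29088868 counts. The floors for CDKN2C cover counting error only, while the intervals come from the SE and so also hold the spread between libraries. Symbols were matched by identifier, and exon lengths and positions are from GENCODE 29.

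Genes with a minimum count of 10 (filterByExpr) were scaled by TMM, and 20957 were tested in 1 model over all groups with edgeR 4.0.16's quasi-likelihood test (R 4.3.3, limma 3.58.1), Benjamini-Hochberg adjusted within a contrast, threshold 0.05. SE is the log2 fold change over the root of F. With 2 libraries per group, p-values measure only the spread between these libraries. Alternatives were other scalings, filters, groups, DESeq2 1.42.0, a replicate block, and leaving out each library. The test was checked on simulated counts with few changed genes and the same spread for every gene. That setting cannot check the scaling where most genes changed.

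Members and lists were chosen with earlier results of these data known. Named genes are the members, their tested neighbours, the 3 genes most correlated with each, and up to 4 genes per list with the largest change at 20 h among those that passed and reached 5 CPM. Some genes and 1 list that the rule covers are not reported here. Same-numbered replicates did not pair (correlations of deviations -0.0248 to 0.0347 over 45 pairs of groups).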

Additional observations from a re-analysis of the deposited data

Results flagged for a closer look

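Several members moved in opposite directions under the same inhibitor at different times, or under panobinostat and romidepsin at the same time. They are listed because both changes against DMSO passed the threshold with opposite signs and the difference between them passed too (edgeR quasi-likelihood test, n = 2 libraries per group). The differences from 2 to 20 h were added after seeing the data.

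CDKN1A with romidepsin was below DMSO at 2 and 5 h and above it at 20 h, a difference of 4.07 ± 0.06 from 2 to 20 h and of 3.51 ± 0.05 from 5 to 20 h (adjusted p = 1.1e-83 and 1.5e-79). The 5 h value rests on a change that several alternatives lose. CDKN1A with romidepsin also stood opposite to panobinostat, by -1.59 at 2 h and -1.30 at 5 h. With ricolinostat CDKN1A differed by 0.82 ± 0.06 from 2 to 20 h, and its change at 2 h depends on single libraries. CDKN1B with ricolinostat was below DMSO at 2 and 5 h and above it at 20 h, by 0.76 ± 0.05 and 0.57 ± 0.05.

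CDKN2A with panobinostat was above DMSO at 2 h and below it later, by -0.44 ± 0.05 from 2 to 5 h and -3.85 ± 0.07 from 2 to 20 h, and the change at 2 h is not stable. CDKN2D with romidepsin was below DMSO at 2 h and above it at 20 h, by 2.72 ± 0.12, and stood opposite to panobinostat at 2 h, by -1.85 ± 0.12. Its change at 2 h was lost without any 1 of the 4 libraries. DINOL, outside the tested genes, had 0 counts in DMSO and 5 counts over both libraries with panobinostat and 12 with romidepsin at 20 h.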

How the results depend on the processing

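Over all alternatives 1303 values of single members kept their side of the threshold, 45 lost the call and 10 gained it. Direction was compared where the main or the alternative fit called the value, and 0 of these reversed. The 6 members changed with panobinostat at 5 and 20 h and with romidepsin at 20 h remained 6 in every alternative. The number changed with ricolinostat from 2 to 5 h was 2. It was 1 by library size alone and 1 with only the groups of the contrast, and ranged from 0 to 2 without single libraries. The step from 2 to 5 h that differed between romidepsin and panobinostat for 5 members gave 3 to 5 without single libraries. Panobinostat at 2 h gave 4 to 5 members in place of 6. Per kb of the longest transcript the DMSO levels were 24.2 CPM for CDKN1A, 84.2 for CDKN1B, 0.0822 for CDKN1C, 103 for CDKN2A and 5.71 for CDKN2D. With a replicate block 6 members still changed with panobinostat at 20 h, and all 120 member values kept their call, although the replicate numbers do not pair the libraries. Scaling by library size alone moved the median of all genes by 0.303 with panobinostat and 0.235 with romidepsin at 20 h, and the share of higher calls from 55.8% to 65.9% (panobinostat 20 h), 43.4% to 65.6% and 44.1% to 71.3% (romidepsin 2 and 5 h) and 47.3% to 66.2% (ricolinostat 20 h). CDKN1C is limited by its 4 counts per DMSO library.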
